A study of Mus musculus with 6 samples.

Results

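The cytosolic ribosomal protein genes are the genes for the proteins of the ribosome that translates nuclear messages, as opposed to the mitochondrial ribosome. Members were chosen by symbol from the deposited expression table: Rpl or Rps with a number and an optional letter or l suffix, together with Rpsa, Rplp0, Rplp1, Rplp2 and Fau. Pseudogene rows (names with -ps) and the S6 kinases were left out. Of 90 rows that matched, 4 were at 0 in all 6 libraries (Rpl10l, Rpl39l, Rps12l1 and Rps12l2), which left 86 genes of 38924 rows: 50 of the large subunit and 36 of the small subunit.

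A ribosome is built from a small subunit, which reads the message, and a large subunit, which joins amino acids, and apart from the stalk proteins its parts are needed in equal amounts. The messages of these genes carry a run of pyrimidines at their start through which TOR signalling controls their translation, so message and protein need not move together. In blood formation the family is known for Diamond-Blackfan anemia and for the 5q- syndrome, in which loss of a single gene copy of a ribosomal protein impairs red cell production.

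The RNA came from marrow of C57BL/6 mice transplanted with transduced marrow, from which flow cytometry had taken the GFP+ Lin- c-kit+ cells, a gate for early progenitors that carry the vector. The 2 mock libraries came from recipients of GFP-transduced marrow at 4 weeks after transplantation. The 2 preleukemia libraries came from recipients of Evi1-GFP marrow at 4 weeks, and the 2 leukemia libraries from such recipients at 6 months. Every group therefore carries a GFP vector, has been transplanted and was taken by the same gate. No GFP library at 6 months was analysed here, so leukemia and time after transplantation cannot be told apart. Whether a group's libraries stem from separate animals is not in the labels, so p-values measure only the spread between libraries, which may be technical.

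Values are RPKM, reads scaled to transcript length and to library size. The library totals recovered from the table ran from 16922993 to 21641729 reads. Mecom, the gene that encodes Evi1, was at 0.774 and 0.805 RPKM in mock, 78.0 and 80.1 in preleukemia against 61.7 and 71.5 in leukemia. All 9 fixed progenitor markers were detected and summed to 3717 and 2766 RPKM in the mock libraries, 4686 and 4998 in those of preleukemia, and 1877 and 1809 in those of leukemia, where 6 of 9 were lower than in mock. Despite the lineage gate, 10 fixed neutrophil markers, none of them at 0 throughout, summed to 11.998 and 17.2 RPKM in mock, 3864 and 8275 in preleukemia, then 420 and 722 in leukemia. The spread was widest in mock: over all genes tested, library 1 and library 2 of mock differed by a median of 0.216 on the log2 scale, against 0.112 for preleukemia and 0.108 for leukemia. Markers of other cells also moved in leukemia minus mock, in both directions. Lower were 7 of 9 tested erythroid (1 higher), 6 of 6 mast cell and basophil and 5 of 6 B lymphoid markers (1 higher). Of T and NK cell markers, 2 of 2 tested were lower, and 5 of the 7 listed were below 1 RPKM in every library. Gzmb stood on this list and on that of mast cells and basophils. Of 7 tested monocyte markers, 3 were higher and 2 lower. Of 6 megakaryocyte markers 2 were lower, and the 1 stroma and endothelium marker tested was higher. In preleukemia minus mock, 5 of 6 B lymphoid (1 higher) and 4 of 6 mast cell and basophil markers were lower. In that comparison 3 of 6 megakaryocyte and 2 of 9 erythroid markers were higher, and of 7 monocyte markers 2 were higher and 2 lower. The erythroid markers summed to 365 and 158 RPKM in mock and to 272 and 314 in leukemia. The part of any of these cells in the results below was not tested. In bulk RNA of this kind, fewer cells of a type and less RNA per cell cannot be told apart.

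Promoter sequences are shown because the start site of these genes lies in the pyrimidine run that controls them, and because they let genes that passed the test be read beside genes that did not. RefSeq promoters on GRCm38.p6 matched 63 of the 86 genes, each from 250 bases before the start to 50 after it. These 6 windows run from 50 bases before the RefSeq start to 10 after it, 5′ to 3′ on the strand of the gene, with capitals for any match on either strand to CTTTCC (a pyrimidine run), CCGGAAG (the core bound by ETS factors) or AAGATGGC (the core bound by YY1). Rpl19, Rpl38 and Rpl36al were lower in leukemia than in mock, whereas Rpl4, Rps3a1 and Rps15a passed no test. Their positions are chr11:98026660-98026719 (plus strand) for Rpl19, chr11:114668530-114668589 (plus) for Rpl38 and chr12:69184058-69184117 (minus) for Rpl36al. Those of the other genes are chr9:64173337-64173396 (plus) for Rpl4, chr3:86142659-86142718 (minus) for Rps3a1 and chr7:118116138-118116197 (minus) for Rps15a.
Rpl19: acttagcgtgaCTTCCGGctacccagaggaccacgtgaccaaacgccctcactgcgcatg
Rpl38: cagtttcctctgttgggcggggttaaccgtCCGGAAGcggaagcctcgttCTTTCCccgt
Rpl36al: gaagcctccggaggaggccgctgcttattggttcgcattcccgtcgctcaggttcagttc
Rpl4: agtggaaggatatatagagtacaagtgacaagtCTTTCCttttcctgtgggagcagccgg
Rps3a1: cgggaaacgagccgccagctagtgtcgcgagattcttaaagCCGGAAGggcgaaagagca
Rps15a: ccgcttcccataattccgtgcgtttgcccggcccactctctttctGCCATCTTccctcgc
Of the 63 windows of this kind only 16 held a match, so matches are more frequent among the windows shown than in general. Among the genes that passed a test, only Rpl19 and Rpl38 had a match in this window. The ETS core stood before the start of Rpl19 and Rps3a1 alike, of which one passed the test and the other did not. Over the whole window of 300 bases, a match on either strand in any promoter entry of a gene was counted. CTTTCC was in 50.8% of the 63 genes and in 29.3% of the 27025 genes of the promoter table. Such a match need not lie at the start, and GGAAAG, a purine run on the strand of the gene, counts as well. CCGGAAG was in 39.7% against 9.93%, and AAGATGGC in 11.1% against 3.19%. No motif of the 3 contains another, although the end of CCGGAAG can run into the start of AAGATGGC. Among the 9 genes with a promoter entry that passed a test, CTTTCC was in 6, CCGGAAG in 5 and AAGATGGC in 0. A match describes these letters only and is not evidence that a factor binds there.

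Of the 86 genes, 82 reached 1 RPKM in at least 2 libraries and were tested, 49 of the large and 33 of the small subunit. The 4 that did not were Rpl3l (0.432 to 1.45 RPKM), a copy of Rpl3 best known from muscle, Rps4y2 (0 to 0.834), and Rps3a2 (0.344 to 0.885) and Rps3a3 (0.0537 to 0.215), which the GENCODE M21 annotation lists as processed pseudogenes. Levels per length spanned a wide range within each subunit. Large subunit genes were led by Rplp1, a protein of the acidic stalk that recruits translation factors, at a mean of 1279 RPKM over the 6 libraries, and by Rpl4, a core protein near the exit tunnel, at 1058. The lowest tested were Rpl13 at 8.25 and Rpl24 at 7.20. Small subunit genes were led by Rps3a1 at 1126 and Rpsa, which is also known as a laminin receptor, at 782. The lowest tested were Rps15a at 51.3 and Rps27l at 44.5. The lengths behind the table are not given; the summed exon lengths of GENCODE M21 returned whole reads in all 6 libraries for 34 of the 85 genes matched to it, and for the others the length is not known. Reads of near-identical copies may have been split or lost, and the level of 1 gene against another is therefore uncertain. Of 224 -ps rows, 192 were at 0 in every library and 15 reached 1 RPKM in at least 2 libraries.

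Within a gene the 6 libraries lay close together. The highest library was less than 1.5 times the lowest in 65 of the 82 genes tested (79.3%), against 37.8% of the 10835 tested genes above 0 in every library and 50.9% of the 961 genes with a mean of at least 40 RPKM. The median of that ratio was 1.28 in the family, 1.64 over those 10835 genes and 1.49 over those 961. The map of each gene relative to its own mean shows mostly pale rows, with a few strongly coloured ones such as Rpl24, Rpl7l1 and Rps12.

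**Figure D1:**
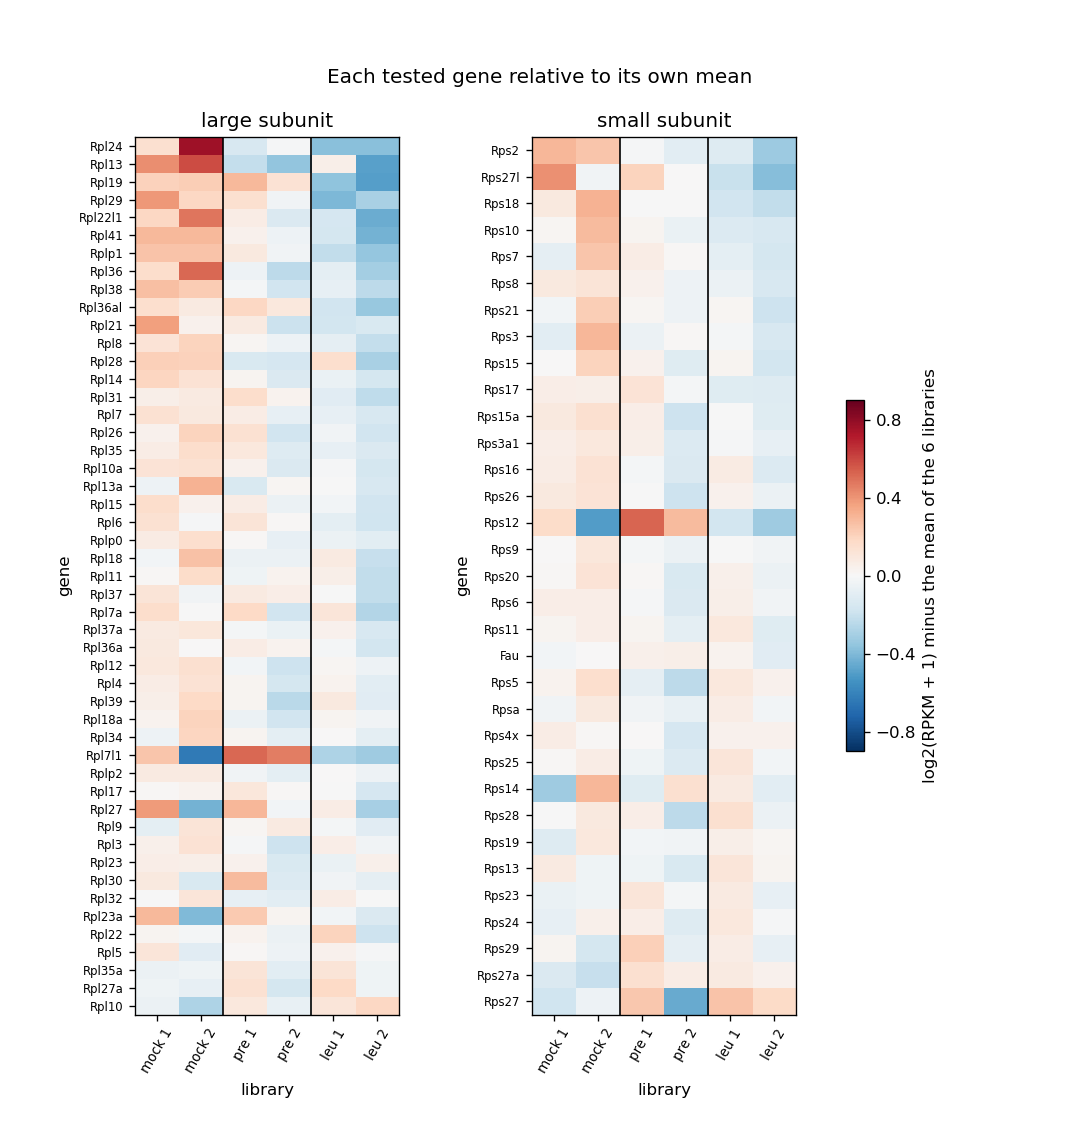
Each row is 1 tested ribosomal protein gene and each column 1 library (mock, preleukemia, leukemia, 2 each); colour is log2(RPKM + 1) minus the mean of the gene over the 6 libraries, red for higher and blue for lower. Rows are ordered by the leukemia minus mock difference, and most rows of the 49 large and 33 small subunit genes stay pale.

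The family as a whole took 11.5% and 12.1% of the summed RPKM in the mock libraries, 10.6% and 9.90% in preleukemia and, for leukemia, 11.6% and 10.8%. By this share the preleukemia libraries were below both mock libraries, and the leukemia pair overlapped mock. The large subunit share of leukemia (5.78%, 5.39%) lay below that of mock (6.03%, 6.29%), whereas the small subunit shares overlapped (5.78%, 5.42% against 5.46%, 5.81%). Before division, family RPKM was also lower for leukemia (25916, 23980) than for mock (27265, 28116). The summed RPKM of all genes differed by group: 237367, 232409 (mock), 251544, 249287 (preleukemia), 224042, 221911 (leukemia). The neutrophil markers held 1.54% and 3.32% of the sum in the preleukemia libraries. With the RPKM of those 10 genes taken out of the sum, the family share there was 10.8% and 10.2%; other RNA of such cells stays in the sum, and its part in the lower share was not tested.

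The balance of the subunits differed between the groups in a measure that multiplying a library by a factor cannot alter. Summed RPKM of the large subunit was 1.10 and 1.08 times that of the small subunit in mock, 1.04 and 1.04 times in preleukemia, then 1.00 and 0.995 times in leukemia. The groups did not overlap. Without Rplp1, the most abundant gene, the mock ratios were 0.988 and 0.971, those of preleukemia 0.934 and 0.935, and those of leukemia 0.916 and 0.913. Without all 12 genes that passed a test in any comparison, the values in the same order of groups were 0.933 and 0.913, then 0.881 and 0.885, then 0.875 and 0.874. The order of the groups was thus the same in all 3 forms of the ratio, with a smaller gap between preleukemia and leukemia in the last. The ratio was described after its values were seen and was not tested.

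**Figure D2:**
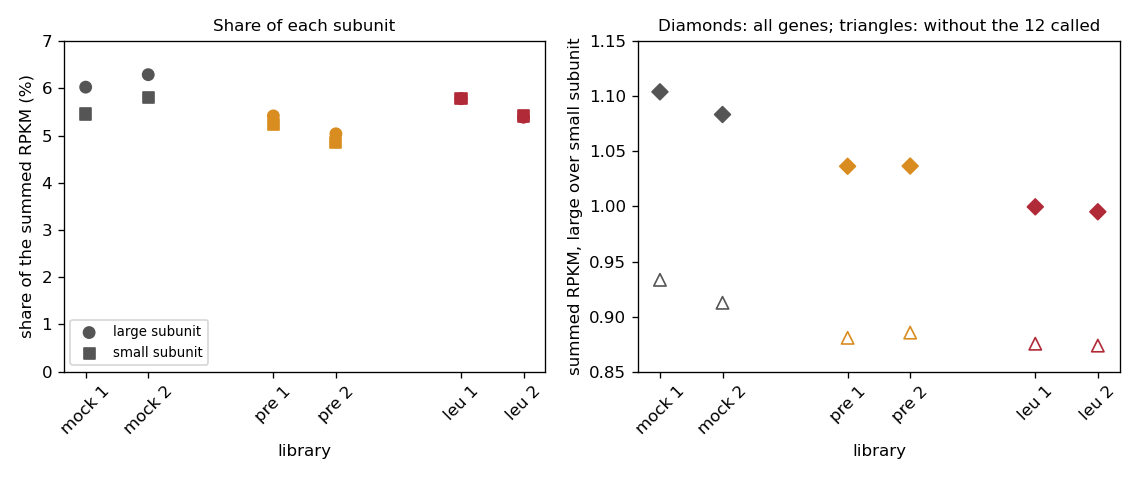
Left, share of the summed RPKM (percent) held by large subunit genes (circles) and small subunit genes (squares) in each library; right, summed RPKM of the large over the small subunit with all genes (diamonds) and without the 12 genes lower in any comparison (triangles; the axis starts above 0). The ratio runs from 1.10 and 1.08 in mock to 1.00 and 0.995 in leukemia.

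Libraries of the same group also differed across the family. In preleukemia, 73 of the 82 genes were higher in library 1 than in library 2, by a median of 0.12 on the log2 scale, and in leukemia 78 of 82 were, by a median of 0.12. In mock 30 of 82 were, with a median of -0.03. Over all genes tested the median of library 1 minus library 2 was 0.03 in preleukemia, 0.02 in leukemia and 0.07 in mock. The subunit medians below are of about the size of the family's gaps in preleukemia and leukemia.

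At 4 weeks, few of these genes passed the test between Evi1 and GFP marrow. Changes of 1.5 times are often missed by this test, which recovered 33% of them in simulated data. In preleukemia minus mock, 1 gene of 82 passed the test at an adjusted p under 0.05 and was lower (1.22%), and 0 were higher, whereas 19.5% of all 10958 genes tested passed, 6.02% lower and 13.5% higher. At an unadjusted p under 0.05 there were 11 of 82, against 35.7% of all genes. The median difference was -0.13 for the large and -0.11 for the small subunit on the log2(RPKM + 1) scale, beside 0.05 for all genes tested; both family medians were below 0 with quantile and trimmed mean scaling and above 0 only where the family median was itself set equal. Both preleukemia libraries lay below both mock libraries in 38 genes (46.3%, against 25.5% of all genes) and above them in 5 (6.1%, against 37.2%). The 95% interval of the difference lay within 1 log2 unit of 0 in 78 of the 82 genes and in 80.6% of all genes.

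The gene that fell was Rpl13, a large subunit protein altered in a human bone growth disorder (chr8:123102350-123105244 on GRCm38). It stood at 10.9 and 12.4 RPKM in mock and at 6.66 and 5.97 in preleukemia, with no overlap, and its difference was -0.79 ± 0.19 (SE) with an adjusted p of 0.0311 by limma. The call was lost without mock library 2 (adjusted p = 0.0895), preleukemia library 1 (0.112) or preleukemia library 2 (0.183). Rpl13 is among the least expressed members, at about 273 to 650 reads a library if the GENCODE M21 exon length is used. That length returned whole reads in 0 libraries, so the depth is uncertain. A pseudogene row, Rpl13-ps3, held 3.78 and 1.90 RPKM in mock, 4.36 and 2.44 in preleukemia against 0.610 and 0.408 in leukemia. The part of that row in the difference was not tested. The count rested on the settings: without mock library 1 it was 6, of which 3 were higher, without mock library 2 or either preleukemia library it was 0, and quantile scaling gave 12, all lower.

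After 6 months more of the genes were lower. In leukemia minus mock, 12 of 82 genes fell (14.6%) and 0 rose, beside 25.6% of all genes tested that passed in either direction, 13.5% that were lower and 12.1% that were higher. The share of lower genes was thus near the background. It comprised 10 of 49 large subunit genes (20.4%) and 2 of 33 small subunit genes (6.06%). At an unadjusted p under 0.05 there were 19 of 82, against 40.1% of all genes, and 2 of those 19 were higher (Rpl10 and Rps27a). The median difference was -0.17 for the large and -0.07 for the small subunit, beside -0.04 for all genes; with quantile scaling the small subunit median was 0.01. Both leukemia libraries lay below both mock libraries in 42 genes (51.2%, against 35.5% of all genes) and above them in 5 (6.1%, against 30%). The 95% interval lay within 1 log2 unit of 0 in 80 of 82 genes and in 78.7% of all genes. Without leukemia library 2 the count of 12 became 0, and without leukemia library 1 it became 3 (Rpl41, Rpl19 and Rpl13). Without either preleukemia library it was 6, and with rows of any value tested it was 3. Leaving out a preleukemia library cannot move a leukemia minus mock difference and changes only the estimate of the spread, which holds for every call named below as lost without one. With the median of the family set equal in every library, 5 genes were lower and 3 higher (Rpl10, Rps27 and Rps27a), and quantile and trimmed mean scaling each gave 10 lower and 1 higher (Rpl10).

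**Figure D3:**
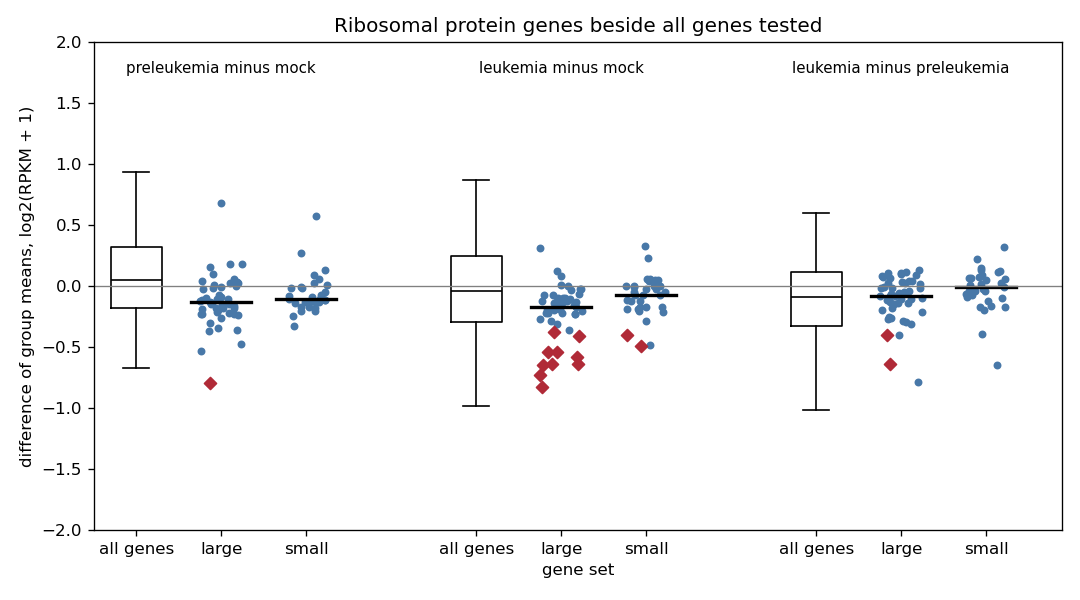
Difference of group means in log2(RPKM + 1) for each comparison; boxes show all 10958 genes tested (median, quartiles and the range from the 5th to the 95th percentile), points the tested large and small subunit genes, red diamonds those with an adjusted p under 0.05, and black bars subunit medians. The points crowd between the quartiles of all genes, and the 12 red diamonds of leukemia minus mock all lie below 0.

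The clearest fall was that of Rpl19, a large subunit protein that reaches across to the small subunit in the joined ribosome (chr11:98026710-98030492, plus strand). It stood at 257 and 259 RPKM in mock, 272 and 243 in preleukemia, then 172 and 157 in leukemia. Mock and preleukemia overlapped, and both leukemia libraries were below the other 4. Leukemia was 63.9% of mock, a difference of -0.64 ± 0.10 (SE; 95% interval -0.89 to -0.39; limma adjusted p = 0.00695). The call held in 17 of 18 alternative settings and was lost without leukemia library 2 (adjusted p = 0.0594).

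Rpl24 and Rpl41 encode further large subunit proteins that contact the small subunit. Rpl41, the smallest of the ribosomal proteins (chr10:128548114-128549305, minus strand), was at 202 and 202 RPKM in mock, 169 and 160 in preleukemia, then 147 and 123 in leukemia. The groups descended without overlap, and leukemia minus mock was -0.58 ± 0.11 (SE; adjusted p = 0.0131), lost without leukemia library 2 (0.0894). Rpl24, mutated in the Belly spot and tail mouse (chr16:55966275-55971435, plus strand), was at 7.70 and 12.4 RPKM in mock, 6.12 and 6.82 in preleukemia against 5.08 and 5.08 in leukemia. The mock libraries lay far apart, and the difference was -0.83 ± 0.20 (SE; adjusted p = 0.0273). That call was lost without either preleukemia library (0.0578 and 0.0578), leukemia library 1 (0.115) or leukemia library 2 (0.125). At the GENCODE M21 exon length, which returned whole reads in only 1 library, Rpl24 rested on about 103 to 258 reads a library. A separate row, RPL24 in capitals and outside the rule, held 12.4 and 2.26 RPKM in mock, 11.1 and 8.61 in preleukemia, then 1.94 and 15.2 in leukemia, and the part of reads shared between the rows in the difference of Rpl24 was not tested.

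Rplp1 forms the acidic stalk with Rplp2 on the anchor Rplp0 (chr9:61913284-61914542, minus strand). It was at 1507 and 1513 RPKM in mock, 1341 and 1236 in preleukemia, then 1085 and 993 in leukemia, a stepwise order without overlap in RPKM. The second step depended on the scaling: leukemia minus preleukemia was -0.31 in RPKM and 0.36 with quantile scaling (adjusted p = 0.0452). Leukemia minus mock was -0.54 ± 0.12 (SE; adjusted p = 0.0189). The call was lost without mock library 1 (0.0645), mock library 2 (0.0741), leukemia library 1 (0.0702) or leukemia library 2 (0.128), and under quantile scaling, where the difference was -0.06. Its partners did not pass: Rplp0 was at 970 and 1024 RPKM in mock and 888 and 863 in leukemia (-0.19, adjusted p = 0.245), and Rplp2 at 194 and 194 against 184 and 178 (-0.10, adjusted p = 0.439).

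Rpl29, which also binds heparin, was at 213 and 185 RPKM in mock, 180 and 158 in preleukemia against 123 and 132 in leukemia (chr9:106429454-106431568, plus strand). Leukemia was below the other groups in both libraries, by -0.63 ± 0.12 against mock (SE; adjusted p = 0.0109), and the call was lost without leukemia library 1 (0.0769) or 2 (0.0520). Rpl36, a small protein of the large subunit (chr17:56613416-56614243, plus strand), was at 296 and 381 RPKM in mock, 257 and 226 in preleukemia, then 250 and 214 in leukemia. Preleukemia and leukemia overlapped, and leukemia minus mock was -0.54 ± 0.15 (SE; adjusted p = 0.0454). That call was among the least steady, held in 6 of 18 alternatives, and was lost without mock library 2 (0.121), preleukemia library 1 (0.0760) or 2 (0.0757), or leukemia library 1 (0.0928) or 2 (0.233). Rpl13 was at 8.22 and 5.34 RPKM in leukemia, below mock by -0.72 ± 0.19 (SE; adjusted p = 0.0333). Here the call was lost without mock library 2 (0.0871), preleukemia library 1 (0.0672) or 2 (0.0670), or leukemia library 2 (0.165).

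The remaining genes past the test included 3 outside the rule for naming genes, named here after their values were seen. Rps2, a small subunit protein near the entry of the message, was at 523 and 507 RPKM in mock, 423 and 400 in preleukemia, then 393 and 340 in leukemia, a stepwise order (leukemia minus mock -0.49, adjusted p = 0.0219). It was lost without mock library 1 (0.0515), leukemia library 1 (0.0528) or leukemia library 2 (0.150). Rps18, in the head of the small subunit, was at 200 and 233 RPKM in mock, 188 and 188 in preleukemia against 166 and 161 in leukemia (-0.40, adjusted p = 0.0358), and was lost without mock library 2 (0.0723), preleukemia library 1 (0.0784) or 2 (0.0780), or leukemia library 1 (0.132) or 2 (0.183). The Rps18 call held in 7 of 18 alternatives and was also lost with trimmed mean scaling and with the family median set equal. Rpl38, needed for translation of Hox messages in the mouse embryo, was at 166 and 162 RPKM in mock, 136 and 122 in preleukemia, then 131 and 117 in leukemia (-0.41, adjusted p = 0.0330). It held in 7 of 18 alternatives and was lost with quantile scaling and with the family median set equal. Its preleukemia and leukemia libraries overlapped, and the call was lost without mock library 1 (0.0560), preleukemia library 1 (0.0621) or 2 (0.0619), or leukemia library 1 (0.0817) or 2 (0.206).

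**Figure D4:**
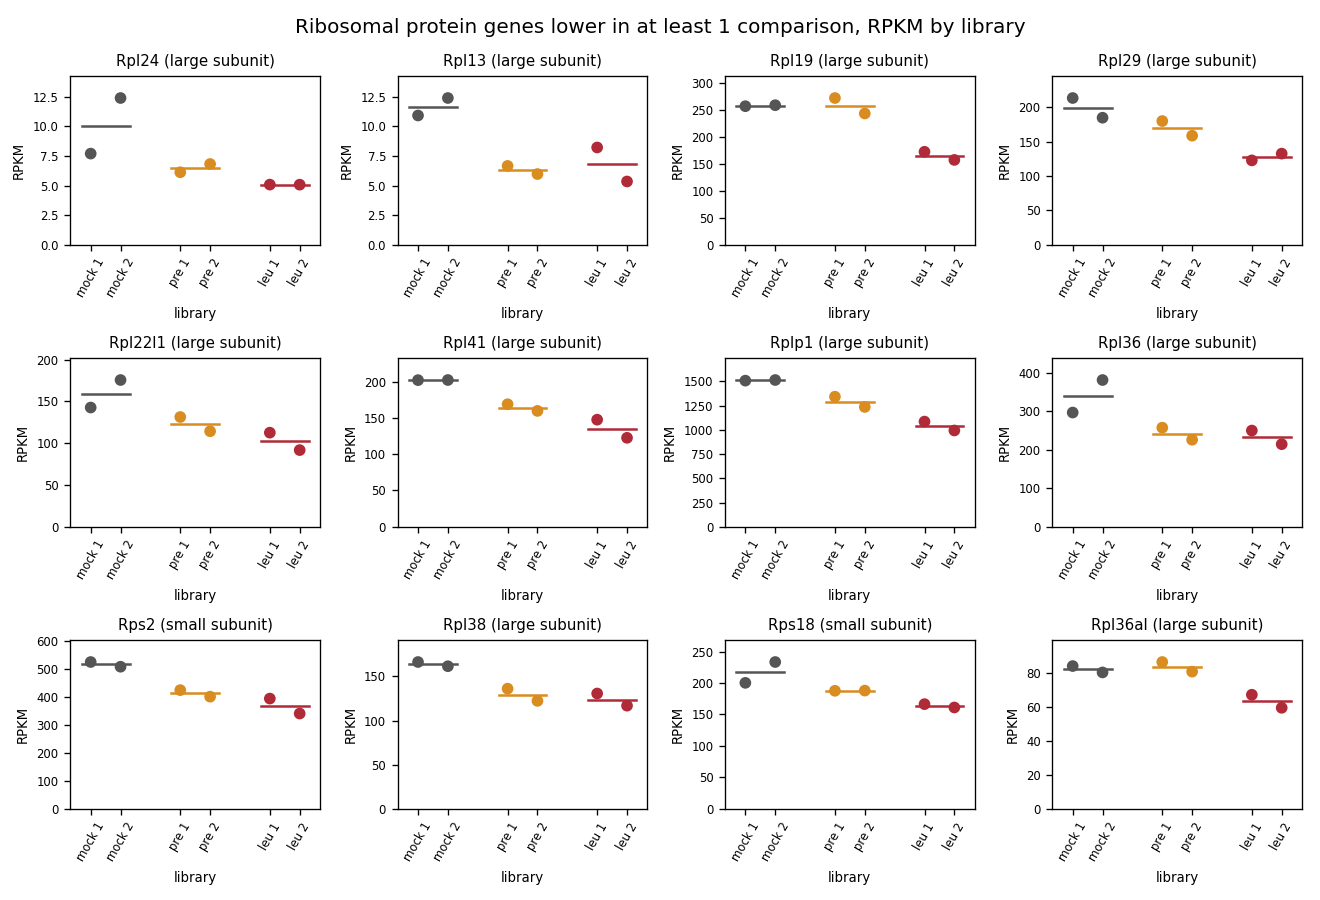
RPKM of the 12 genes with an adjusted p under 0.05 in at least 1 comparison; points are libraries (mock, preleukemia labelled pre, leukemia labelled leu), horizontal lines group means, and each axis starts at 0. Rpl19 and Rpl36al are level between mock and preleukemia and lower in leukemia, whereas Rpl41, Rplp1 and Rps2 step down from group to group.

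The median annotated exon length of the 12 genes was 1147 bases, against 1906 for the other 70 genes tested. This was so in the large subunit (1078 against 2053) but not for the 2 small subunit genes (2140.5 against 1726), and Rpl13, Rps18 and Rpl22l1 were longer than 1906 bases. The part of length in the calls was not tested.

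Between the Evi1 groups, 2 of 82 genes fell from preleukemia to leukemia (2.44%) and 0 rose, beside 18.3% of all genes tested that passed, 13% that were lower and 5.27% that were higher. At an unadjusted p under 0.05 there were 8 of 82, against 33.8% of all genes. Both leukemia libraries lay below both preleukemia libraries in 26 genes (31.7%, against 46% of all genes) and above them in 9 (11%, against 24.7%). The 95% interval lay within 1 log2 unit of 0 in 80 of 82 genes and in 81.7% of all genes. The comparison shares its leukemia libraries with leukemia minus mock. Rpl19 fell by 0.64 ± 0.10 on the log2 scale (SE; adjusted p = 0.00969), and the call was lost without preleukemia library 1 (0.0715) or 2 (0.0505), or leukemia library 1 (0.0535) or 2 (0.0675). Rpl36al fell by 0.40 ± 0.10 (SE; adjusted p = 0.0392), lost without preleukemia library 1 (0.215) or 2 (0.155), or leukemia library 1 (0.108) or 2 (0.228). The Rpl36al call held in 9 of 18 alternatives. It was also lost with quantile scaling, trimmed mean scaling, the family median set equal, no filter or no trend. The median was -0.08 for the large and -0.01 for the small subunit, beside -0.09 for all genes. Those medians depend on the scaling: they were 0.09 and 0.19 under quantile scaling and 0.02 and 0.09 under trimmed mean scaling, and quantile scaling gave 11 genes higher and 1 lower. Without either mock library, which adds only to the estimate of the spread, 6 genes were lower, among them Rps12 and Rpl7l1, and without preleukemia library 2 or either leukemia library there were 0. Without preleukemia library 1 there was 1, Rps27, which was higher.

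A few genes split the mock pair. Rpl7l1, a gene similar to Rpl7, was at 16.2 and 8.30 RPKM in mock, 19.7 and 18.8 in preleukemia, then 10.9 and 10.5 in leukemia. The preleukemia libraries were the highest 2, but no comparison passed (leukemia minus preleukemia -0.79, adjusted p = 0.083). Its leukemia minus mock difference was 0.34 (adjusted p = 0.0390) without mock library 1 and -0.55 (adjusted p = 0.0110) without mock library 2, so its sign depended on which mock library was kept. Rps12, a small subunit protein, was at 547 and 345 RPKM in mock, 704 and 596 in preleukemia against 436 and 392 in leukemia, again highest in preleukemia. Its difference of 0.58 from mock had an adjusted p of 0.112, and 0.0115 without mock library 1. Rpl23a, Rpl27, Rps14 and Rpl24 were the other genes whose mock libraries lay more than 0.5 log2 units apart, against 1 gene in preleukemia (Rps27) and 1 in leukemia (Rpl13).

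Genes linked to Diamond-Blackfan anemia or the 5q- syndrome did not pass at the main settings. Of a fixed list of 20 such genes, 0 were called in each of the 3 comparisons, by limma with Benjamini-Hochberg adjustment, against 19.5%, 25.6% and 18.3% of all genes, and 0, 1 (Rps10) and 1 (Rpl31) had an unadjusted p under 0.05. In leukemia minus mock, Rps10 passed as lower without mock library 1 (0.0263) and Rps27 as higher with the family median set equal (0.0440). With quantile scaling Rps26 passed as lower in preleukemia minus mock (0.0297), and Rps24 and Rps26 as higher in leukemia minus preleukemia (0.0447 and 0.0274). Medians were -0.03 in preleukemia minus mock, -0.14 in leukemia minus mock and -0.05 in leukemia minus preleukemia. Rps19, the gene most often mutated in the anemia, was at 81.4 and 94.5 RPKM in mock, 86.8 and 86.5 in preleukemia, then 91.4 and 89.5 in leukemia. The mock libraries enclosed the other 4, and the leukemia minus mock difference of 0.04 had a 95% interval of -0.20 to 0.29. Rps14, the gene of the 5q- syndrome, was at 244 and 376 RPKM in mock, 283 and 337 in preleukemia, then 322 and 286 in leukemia, with an interval of -0.50 to 0.50. A p that misses the threshold does not show that the levels were equal, and for Rps14 the wide mock pair left the interval wide.

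The 5S particle, in which Rpl5 and Rpl11 hold the 5S RNA and can bind the p53 inhibitor Mdm2, showed 0 of 2 genes called. Rpl5 was at 213 and 184 RPKM in mock, 199 and 191 in preleukemia against 202 and 196 in leukemia, and the groups overlapped. Rpl11 was at 88.2 and 98.1 RPKM in mock, 84.9 and 89.2 in preleukemia, then 90.7 and 74.9 in leukemia, also overlapping. Rps27a and Fau are made as fusions with ubiquitin or a ubiquitin-like protein, and 0 of 2 passed. Rps27a was at 204 and 193 RPKM in mock and at 246 and 233 in preleukemia, with leukemia at 236 and 229. Both Evi1 groups were above mock without overlap (0.27 with an adjusted p of 0.089, and 0.23 with 0.118), against the direction of most of the family.

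Among the copies of ribosomal protein genes, 2 of 4 tested were lower in leukemia than in mock, beside 13.5% of all genes. Of the 8 listed partners, which include those of copies not tested, 0 were lower. Rpl22l1 is a copy of Rpl22, a gene lost in some leukemias (chr3:28805436-28807424, plus strand). It was at 143 and 175 RPKM in mock, 131 and 114 in preleukemia, then 113 and 91.7 in leukemia, a stepwise order without overlap. Leukemia minus mock was -0.63 ± 0.15 (SE; adjusted p = 0.0256), lost without mock library 2 (0.0682), leukemia library 1 (0.0501) or leukemia library 2 (0.155). Rpl22 itself was at 89.5 and 86.8 RPKM in mock and 101 and 77.0 in leukemia, overlapping, with a difference of 0.00. Rpl22l1 therefore stood at 159% and 202% of Rpl22 in mock, 146% and 135% in preleukemia against 111% and 119% in leukemia, by RPKM per length.

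Rpl36al, a copy of the X-linked Rpl36a, lies on chr12:69182731-69184083 (minus strand) and its exon length of 1353 bases fills that span. It was at 83.8 and 80.1 RPKM in mock, 86.2 and 80.6 in preleukemia, then 67.0 and 59.3 in leukemia. Both leukemia libraries were below the other 4, and leukemia minus mock was -0.37 ± 0.10 (SE; adjusted p = 0.0380). The call was lost without mock library 1 (0.0601), preleukemia library 1 (0.0812) or 2 (0.0811), or leukemia library 1 (0.0824) or 2 (0.234). The call held in 8 of 18 alternatives and was also lost with the family median set equal, no filter or no trend. Rpl36al stood at 62.0% and 62.8% of Rpl36a in mock, 64.4% and 61.7% in preleukemia, then 53.3% and 52.3% in leukemia. Rps27l, a copy of Rps27 known as a p53 target, was at 58.6 and 42.8 RPKM in mock, 50.3 and 43.9 in preleukemia against 38.0 and 33.3 in leukemia. It did not pass (-0.48, adjusted p = 0.074) although leukemia lay below the other groups, and without mock library 2 it had an adjusted p of 0.0144. Rps27 was at 128 and 141 RPKM in mock, 172 and 106 in preleukemia, then 174 and 164 in leukemia, and its preleukemia libraries lay far enough apart to enclose both mock libraries and 1 of the leukemia libraries.

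Genes that work with the ribosome were taken from lists fixed by role. A list of 17 held elongation and other translation genes with a pyrimidine start (such as Eef1a1, Eef2 and Pabpc1). By limma, 0 were called in each of the 3 comparisons, beside 19.5%, 25.6% and 18.3% of all genes. At an unadjusted p under 0.05 there were 4, 3 and 2, beside 35.7%, 40.1% and 33.8%. With quantile scaling and with trimmed mean scaling, 3 were lower in preleukemia minus mock. The median was -0.13, -0.11 and 0.02 in preleukemia minus mock, leukemia minus mock and leukemia minus preleukemia. Of 26 initiation genes, 10 fell in leukemia minus mock and 0 rose (median -0.31, beside -0.04 and 13.5% lower for all genes). In preleukemia minus mock 1 fell (Eif5), beside 6.02% of all genes. In leukemia minus preleukemia 1 fell (Eif4ebp1, a repressor of initiation), beside 13%. Those that fell in leukemia minus mock included the eIF2 subunit Eif2s2 (-0.79, limma adjusted p = 0.00749), the start site factor Eif1 (-0.53, 0.0177), Eif2s1 (-0.41, 0.0286) and Eif5a (-0.40, 0.0299). Without leukemia library 2 the count of 10 became 0, without leukemia library 1 it became 1, and without either preleukemia library it became 2. With the median of the ribosomal protein genes set equal it was 1, with a median of -0.10.

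Of 57 genes of ribosome assembly, 10 fell in preleukemia minus mock and 0 rose (median -0.26, beside 6.02% lower for all genes), and 13 fell in leukemia minus mock and 0 rose (median -0.22, beside 13.5%). Rrp12, a factor of pre-ribosome export, was at 13.7 and 14.6 RPKM in mock, 9.25 and 8.69 in preleukemia, then 7.47 and 7.64 in leukemia, a stepwise order without overlap (-0.60 with an adjusted p of 0.0109, and -0.82 with 0.00281). Nop58, a core protein of box C/D small nucleolar particles, differed from mock by -0.54 (0.0112) and -0.52 (0.0103). Gnl3, or nucleostemin, and Ncl, or nucleolin, fell by 0.55 and 0.63 on the log2 scale in preleukemia (adjusted p = 0.0116 and 0.0135). Polr1d, a subunit of RNA polymerases I and III, and the helicase Ddx21 fell by 0.56 and 0.43 in leukemia (0.00622 and 0.0211). The counts changed with the libraries: the 10 became 0 or 1 without preleukemia library 2 or 1, the 13 became 1 without either leukemia library and 5 without either preleukemia library. Quantile and trimmed mean scaling each gave 20 lower for preleukemia minus mock, whereas with the median of the ribosomal protein genes set equal there were 6 in that comparison and 1 in leukemia minus mock (median -0.02). In leukemia minus preleukemia, 1 rose (Riok2) and 2 fell (Ltv1 and Polr1d), beside 5.27% and 13% of all genes. Each has a role in making subunits or ribosomal RNA.

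The messages of 8 tested snoRNA host genes share the pyrimidine start but mostly encode no protein. Of these, 4 fell in preleukemia minus mock (Snhg5, Snhg3, Snhg4 and Snhg12) and 0 rose, beside 6.02% and 13.5% of all genes. Snhg5 was at 40.4 and 44.9 RPKM in mock, 26.2 and 23.5 in preleukemia against 31.0 and 29.4 in leukemia, with preleukemia lowest. In leukemia minus mock 2 fell (Snhg3 and Snhg5) and 1 rose (Snhg7, 0.86, limma adjusted p = 0.0112), beside 13.5% and 12.1% of all genes. In leukemia minus preleukemia Snhg7 alone rose (0.74, 0.0238), beside 5.27%. Without preleukemia library 2 the count of 4 became 0. In leukemia minus mock there were 0 in either direction without leukemia library 1, 0 lower and 1 higher without leukemia library 2, and 0 lower and 2 higher with the family median set equal. In leukemia minus preleukemia there were 0 without preleukemia library 2 or either leukemia library. Of 18 regulators of TOR signalling and of the pyrimidine start, 4 rose in preleukemia minus mock (Rps6ka3, Mycn, Mlst8 and Tsc2), beside 13.5% of all genes. The 4 became 1 without either preleukemia library, and without mock library 1 there were 7 higher and 2 lower. Rps6ka3, a kinase of ribosomal protein S6, was at 14.3 and 10.03 RPKM in mock, 26.1 and 27.4 in preleukemia, then 11.7 and 12.2 in leukemia, high in preleukemia alone of the 3 groups. Mycn, a transcription factor related to Myc, was at 1.74 and 0.872 RPKM in mock, 6.28 and 4.67 in preleukemia, then 0 and 0.0309 in leukemia, the group in which it was near 0. The regulators that were lower in leukemia were Mycn against mock, and Mycn, Rps6ka3, Rps6ka1 and Mlst8, a TOR complex subunit, against preleukemia. That was 1 of 18 beside 13.5% of all genes, and 4 of 18 beside 13%. The count of 1 against mock became 0 without either leukemia library and 3 without mock library 1, with 1 higher. The 4 against preleukemia became 1 without preleukemia library 2 or leukemia library 1, and 2 without preleukemia library 1.

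Most of the family passed no test. In none of the 3 comparisons were 70 of the 82 genes called. The group means fell stepwise from mock to preleukemia to leukemia in 36 genes and rose stepwise in 4. The share of all genes with such an order was not computed. The second step depends on the scaling, as the subunit medians of leukemia minus preleukemia above show. Rpl10, a late-joining protein of the large subunit, was one whose group means were stepwise higher, at 145 and 124 RPKM in mock, 161 and 144 in preleukemia against 163 and 172 in leukemia. Leukemia was above mock without overlap, by 0.32, but with an adjusted p of 0.089, which was 0.0338 without mock library 1, 0.0319 with quantile scaling, 0.0444 with trimmed mean scaling and 0.0177 with the family median set equal. Rps6, the target of the S6 kinases, was at 487 and 485 RPKM in mock, 463 and 426 in preleukemia, then 484 and 456 in leukemia, a range of 1.14 times between the highest and the lowest library. Rpl4 was at 1105 and 1155 RPKM in mock, 1072 and 948 in preleukemia, then 1078 and 990 in leukemia, and Rps3a1 at 1170 and 1204, 1168 and 1033, and 1116 and 1066. For both, the leukemia libraries were below both mock libraries by amounts that missed the threshold (-0.13 with an adjusted p of 0.466, and -0.12 with 0.484).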

How the data were processed

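Per the labels' protocols, RNA of sorted GFP+ Lin- c-kit+ cells was made into libraries with a NEBNext Ultra kit. CASAVA 1.8.2 and GRCm38 appear, without a role, in the submitters' processing notes; which aligner, counter and annotation served is not given in the sources used. The authors deposited 1 RPKM value per gene and library. The unit was inferred: at GENCODE M21 exon lengths, 63.8% to 65.7% of values under 20 reads were within 0.02 of whole reads (4% by chance), which gave the library totals. At those totals 3 reads on 1 kb were worth 0.139 to 0.177 RPKM.

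Groups were compared on log2(RPKM + 1) with limma 3.58.1 in R 4.3.3, a fit of 3 group means over all 6 libraries with an intensity trend (3 residual and 3.705 prior degrees of freedom). The fit took the 10958 genes that reached 1 RPKM in 2 or more libraries. Tests were two-sided, with Benjamini-Hochberg adjustment over all of them at 0.05, and the scale understates changes of low genes. Without strand, overlapping antisense genes cannot be told apart. The members, lists and tests were chosen with earlier results of these data known. Named were members past the test (the 8 largest changes where more passed), the 2 highest and 2 lowest of each subunit, the fixed subsets, and up to 4 called genes per related list; others were named after their values were seen. Alternatives covered pseudocount, filter, scaling, spread, libraries fitted, a replicate block and each library left out. The test was tested on simulated data, whose spread was set and not taken from these libraries. Of genes changed 1.5 times it recovered 33% in preleukemia minus mock, 55.5% in leukemia minus mock and 39.5% in leukemia minus preleukemia. Of genes changed 2 times it recovered 95.5%, 96.5% and 92.5%.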

Additional observations from a re-analysis of the deposited data

How the results depend on the processing

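The number of the 82 genes past the test depended on the setting. In preleukemia minus mock it was 1, and became 0 with no filter, 12 with quantile scaling, 3 with trimmed mean scaling, 3 (2 higher) with the median of the ribosomal protein genes set equal, 0 with array weights, and 0 to 6 with 1 library left out. In leukemia minus mock it was 12, and became 3 with no filter, 4 with array weights, 6 with only the 4 libraries compared, 11 (10 lower, 1 higher) with quantile and with trimmed mean scaling, 8 (5 lower, 3 higher) with the family median set equal, 8 without a trend, and 0 to 12 with 1 library left out. In leukemia minus preleukemia it was 2, and became 1 with no filter, 12 with quantile scaling, 1 with trimmed mean scaling, 1 with the family median set equal, 1 without a trend, 6 with array weights, 6 with the 4 libraries compared, and 0 to 6 with 1 library left out. With the replicate number as a block the counts were 3, 12 and 4. The labels give the libraries only a shared number. The correlations of their deviations over all genes were 0.116 for mock and preleukemia, 0.0125 for mock and leukemia and 0.179 for preleukemia and leukemia. Over the members they were 0.396, -0.00961 and 0.0126 in the same order.

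Scaling moved the medians (log2). In preleukemia minus mock the large subunit was at -0.21 with quantile scaling, -0.20 with trimmed mean scaling and 0.0164 with the family median set equal, and the small subunit at -0.21 with quantile scaling and 0.0374 with the family median set equal. In leukemia minus mock the large subunit was at -0.0885 with quantile scaling, 0.032 with the family median set equal and -0.26 to -0.0892 with 1 library left out, and the small subunit at 0.13 with the family median set equal. In leukemia minus preleukemia the large subunit was at 0.0935 with quantile scaling, 0.0197 with trimmed mean scaling, -0.0164 with the family median set equal and -0.15 to 0.0121 with 1 library left out, and the small subunit at 0.19 with quantile and 0.0877 with trimmed mean scaling. The median of all genes itself moved, from -0.09 to 0.03 with quantile scaling in leukemia minus preleukemia and from 0.05 to 0.20 with the family median set equal in preleukemia minus mock; by construction that last setting holds the family still. The other causes were not tested. In the comparison in which it was called, no gene changed sign in the alternatives run. Elsewhere signs did change: with quantile scaling Rplp1 was higher in leukemia than in preleukemia, and Rpl7l1 differed from mock in either direction by the mock library kept.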
